A study of Mus musculus with 2 samples.

Results

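The miR-148 and miR-152 family consists of 3 mouse miRNA genes, Mir148a, Mir148b and Mir152, whose products carry the same seed. The seed is the run of bases 2 to 8 of a mature miRNA, which pairs with target messenger RNAs. The 3 genes were taken by their GENCODE M21 symbols from the 2202 miRNA genes counted, by a rule that uses no measured values. The tissue was left cerebral cortex from 2 B6CASTF1/J mice, both female and aged 2 months, and RNA below 30 nucleotides was sequenced in 1 library per animal. B6CASTF1/J is a first-generation hybrid of C57BL/6 and wild-derived CAST mice. The labels name no treatment, mutation or transgene, so both libraries formed 1 group and no condition was compared. The labels give the animals as separate females, 03 (animal 1) and 04 (animal 2), although both carry the same donor identifier.

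Animal 1 had 4415759 reads counted at miRNA genes and animal 2 had 2279562. In animal 1, 23.4% of all reads were unmapped, and in animal 2, 47.1%. Levels are in CPM, the count scaled so that the reads counted at genes sum to 1000000. Detected here means at least 2 CPM in each library, which 415 genes reached. Of 15 neuronal miRNA genes used to check the tissue label, 12 were detected, and the 3 copies of Mir124a were the exceptions. Any read that matched more than 1 place was tallied outside the gene rows. Low values at a gene with several copies therefore do not show that its mature miRNA was absent from the cortex. A library joins an animal and its preparation, so the contributions of these cannot be told apart, nor can fewer cells of a type and less RNA per cell.

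A mature miRNA is cut from a hairpin by Drosha and Dicer, is loaded into an Argonaute protein and lowers the stability and translation of messenger RNAs that match its seed. In this family the arm downstream of the loop (3p) is the usual guide. Members are known to act on the DNA methyltransferase messages Dnmt1 and Dnmt3b. miR-148a is abundant in liver, where it lowers the LDL receptor and the cholesterol exporter ABCA1, and it also acts in B cells and dendritic cells.

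The 3p sequences are shown first because they define the family and show where its members can be told apart. They are RefSeq reference sequences on GRCm38.p6, written 5′ to 3′ with the seed in capitals. The alleles of the hybrid animals were not read.
miR-148a-3p: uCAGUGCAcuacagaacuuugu
miR-148b-3p: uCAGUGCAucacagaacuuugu
miR-152-3p: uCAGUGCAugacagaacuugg

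The first 8 bases were identical in all 3 sequences. Counted from the 5′ end of the mature miRNA, miR-148b-3p differed from miR-148a-3p by C9U and U10C, which left 20 of 22 positions identical. Against miR-148a-3p, miR-152-3p carried C9U, U10G and U20G and was 1 base shorter. Between miR-148b-3p and miR-152-3p the substitutions were C10G and U20G. All substitutions thus lay outside the seed. Among the 1738 mature mouse sequences of the RefSeq table, these 3 alone had the seed CAGUGCA, or 0.173%. The message site that pairs with it reads UGCACUG.

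The upstream arms (5p), shown in the same way because they carry other seeds, were less alike.
miR-148a-5p: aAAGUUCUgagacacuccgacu
miR-148b-5p: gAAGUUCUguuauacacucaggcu
miR-152-5p: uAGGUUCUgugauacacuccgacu

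Alignment identity of the 5p arms was 75.0% to 79.2%, against 81.8% to 90.9% for the 3p arms. miR-148a-5p and miR-148b-5p shared the seed AAGUUCU, and miR-152-5p had AGGUUCU. The count tables give 1 value per gene, so the arms were not measured separately.

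The hairpins, with the 3p arm in capitals, show how far the precursors differ around a nearly constant arm.
Mir148a: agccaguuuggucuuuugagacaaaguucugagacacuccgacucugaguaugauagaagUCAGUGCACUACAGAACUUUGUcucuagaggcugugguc
Mir148b: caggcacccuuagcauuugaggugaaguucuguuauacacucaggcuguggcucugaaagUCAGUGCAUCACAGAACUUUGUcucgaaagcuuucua
Mir152: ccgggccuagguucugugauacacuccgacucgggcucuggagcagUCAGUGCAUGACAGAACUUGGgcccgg

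Over the whole hairpin, Mir148a and Mir148b were identical in 67.6% of alignment columns, and Mir152 matched them in 58.4% and 59.6%. The longest exact run shared by any pair of members was 15 bases, between Mir148a and Mir148b. With the other 1002 hairpins of the RefSeq table, the longest shared run was 11 bases for Mir148a, 12 for Mir148b and 11 for Mir152. A read of a full mature sequence of 21 or 22 bases therefore matches only 1 hairpin of this table without a mismatch. The rest of the genome was not searched.

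The 3 genes lie on different chromosomes (mm10, GENCODE M21), and 2 of them lie in introns of paralogous hosts. Mir148a (ENSMUSG00000065505.1) is on the minus strand of chromosome 6, from 51269812 to 51269910, and overlaps no other annotated gene. Its nearest protein-coding gene, Nfe2l3, is 162760 bases away. Mir148b (ENSMUSG00000065560.1) is on the plus strand of chromosome 15, from 103285125 to 103285221, in intron 1 of Copz1. Mir152 (ENSMUSG00000065515.1) is on the plus strand of chromosome 11, from 96850393 to 96850465, in intron 1 of Copz2. Copz1 and Copz2 encode the paralogous zeta subunits of the coatomer, the coat of vesicles moving within the Golgi and back to the endoplasmic reticulum. The host introns differ in length, 16159 bases in Copz1 and 676 bases in Copz2. Host messages were not measured in these libraries.

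All 3 members were detected at low levels, in the order Mir148b, Mir148a, Mir152 in both animals. Mir148b had 255 counts in animal 1, or 57.7 CPM (exact Clopper-Pearson 95% interval 50.9 to 65.3), and 66 counts in animal 2, or 29.0 CPM (22.4 to 36.8). Its mean was 43.4 ± 20.4 CPM (SD, n = 2), rank 240 of 2202. Animal 1 was the higher, and the counting intervals of the animals did not overlap.

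Mir148a had 220 counts in animal 1, or 49.8 CPM (43.5 to 56.9), and 39 counts in animal 2, or 17.1 CPM (12.2 to 23.4). The mean was 33.5 ± 23.1 CPM (SD, n = 2), rank 251. Animal 1 was again the higher, with intervals that did not overlap.

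Mir152 had 111 counts in animal 1, or 25.1 CPM (20.7 to 30.3), and 34 counts in animal 2, or 14.9 CPM (10.3 to 20.8). Its mean of 20.0 ± 7.23 CPM (SD, n = 2) placed it at rank 275. Animal 1 was again the higher, but here the separate intervals met between 20.7 and 20.8 CPM. These intervals, and the limit for a count of 0, take in counting error alone. They may understate even that, because the labels name no molecular identifiers and PCR copies of a molecule are not independent. The limit for a count of 0 was set at 3 counts. This is 0.679 CPM for animal 1 and 1.32 for animal 2, below every value of the family.

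**Figure D1:**
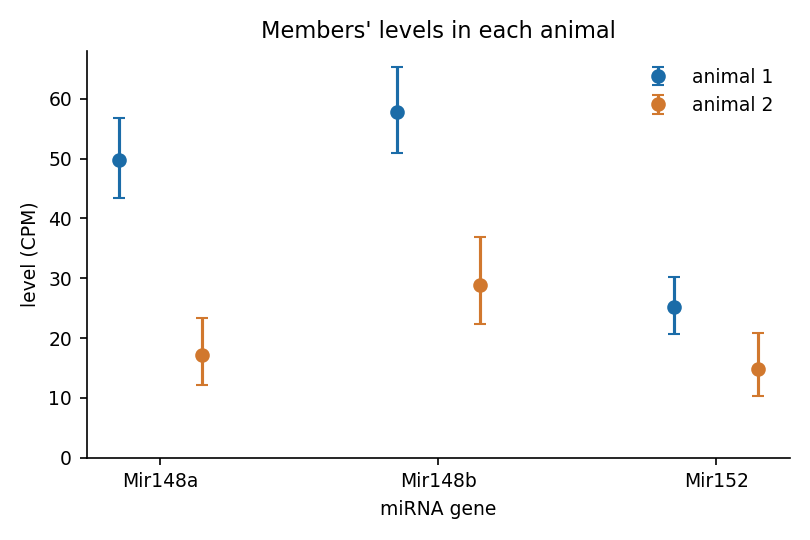
Level in CPM of Mir148a, Mir148b and Mir152, with 1 point per animal and bars for the exact 95% counting interval. Each gene was higher in animal 1, with Mir148a at 49.8 CPM in animal 1 and 17.1 CPM in animal 2.

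Neighbours in the order were not separated in both animals. Mir148b had 1.16 times the counts of Mir148a in animal 1, with an exact interval of 0.964 to 1.39, and 1.69 times in animal 2 (1.12 to 2.58). Mir148a had 1.98 times the counts of Mir152 in animal 1 (1.57 to 2.51) and 1.15 times in animal 2 (0.706 to 1.87). Each neighbour step thus lay beyond counting error in 1 animal only. The outer members, Mir148b and Mir152, were apart beyond counting error in both, by 2.30 times (1.83 to 2.90) and 1.94 times (1.26 to 3.03).

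One read of a small RNA library covers 1 mature miRNA, so counts were not divided by length. Divided by the annotated hairpin lengths of 99 bases for Mir148a, 97 for Mir148b and 73 for Mir152, levels per 100 bases in animal 1 were 50.3, 59.5 and 34.4 CPM. In animal 2 they were 17.3, 29.8 and 20.4 CPM, so that per length Mir152 stood above Mir148a there. That step was inside counting error, with a ratio of Mir148a to Mir152 of 0.846 (0.520 to 1.38). Per length, Mir148b over Mir152 in animal 2 was 1.46 with an interval of 0.952 to 2.28, which also reaches 1.

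Together the family held 586 counts in animal 1 and 139 in animal 2. In CPM this was 132.7 (122 to 144) and 61.0 (51.3 to 72.0), with a mean of 96.8 ± 50.7 CPM (SD, n = 2). Taken as 1 gene, the family would have ranked 183 in animal 1 and 217 in animal 2. The median of the 415 detected genes' mean levels was 87.0 CPM, so each single member lay below the typical detected miRNA gene. Of the detected genes, 42.2% had a lower mean than Mir148b, 39.5% a lower mean than Mir148a and 33.7% a lower mean than Mir152.

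**Figure D2:**
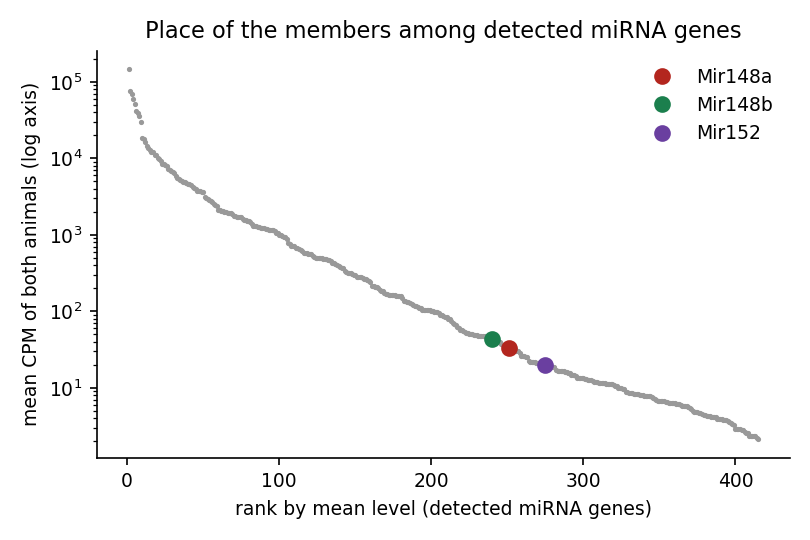
Mean CPM of both animals on a log axis against rank for the 415 detected miRNA genes (grey), with the 3 members in colour. The members sit at ranks 240, 251 and 275, in the lower part of a curve that spans several orders of magnitude.

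Mir148b was the largest part of the family in both animals. Its part of the family's counts was 43.5% (exact interval 39.5 to 47.6%) for animal 1 and 47.5% (39.0 to 56.1%) for animal 2. Mir148a held 37.5% (33.6 to 41.6%) and 28.1% (20.8 to 36.3%), and Mir152 held 18.9% (15.8 to 22.4%) and 24.5% (17.6 to 32.5%). Mean shares were 45.5 ± 2.80% for Mir148b, 32.8 ± 6.71% for Mir148a and 21.7 ± 3.90% for Mir152 (SD, n = 2). The intervals of the animals overlapped for each member.

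**Figure D3:**
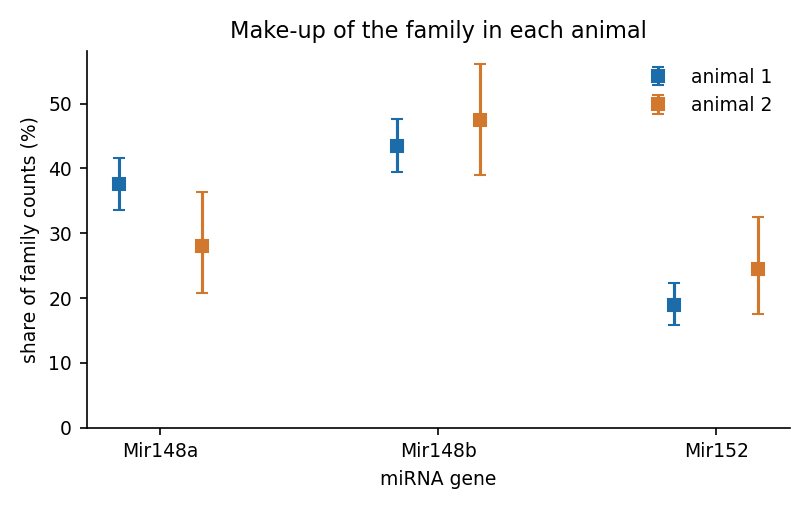
Share of the family's counts held by each member, in percent, with 1 square per animal and exact 95% intervals. Mir148b leads in both animals at 43.5% and 47.5%, and each member's intervals overlap between animals.

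Every member had a higher level in animal 1. The ratio of animal 1 to animal 2 in CPM was 2.91 for Mir148a (exact interval 2.06 to 4.21), 1.99 for Mir148b (1.52 to 2.66) and 1.69 for Mir152 (1.14 to 2.55). For the family sum it was 2.18 (1.81 to 2.64). All 3 members were outside counting error in this direction, meaning that the share of a gene's counts from animal 1 had an exact 95% interval above that animal's share of the library totals. Of all 415 detected genes, 27.0% were outside in the direction of animal 1 and 56.6% in either direction. The share depends on depth, and among the 122 detected genes with a mean of 10 to 100 CPM, where the 3 members lie, 20.5% were outside toward animal 1 and 37.7% in either direction. This compares 2 libraries and not 2 conditions, and no p-value was computed.

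On the log2(CPM + 1) scale, which understates the change of low genes, the differences between animal 1 and animal 2 were 1.49 for Mir148a, 0.97 for Mir148b and 0.72 for Mir152. Their median of 0.97 stands beside a median of -0.0029 over all detected genes and of 0.06 over the genes of 10 to 100 CPM. The median absolute difference over detected genes was 0.32. Counting the member itself, 6 of the 415 detected genes (1.45%) had a difference at least as large toward animal 1 as Mir148a. The corresponding numbers were 21 (5.06%) for Mir148b and 34 (8.19%) for Mir152. Among the 122 detected genes of 10 to 100 CPM, the shares were 2.46% for Mir148a, 4.92% for Mir148b and 9.02% for Mir152. In the opposite direction, 53 detected genes differed by at least as much as Mir152.

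**Figure D4:**
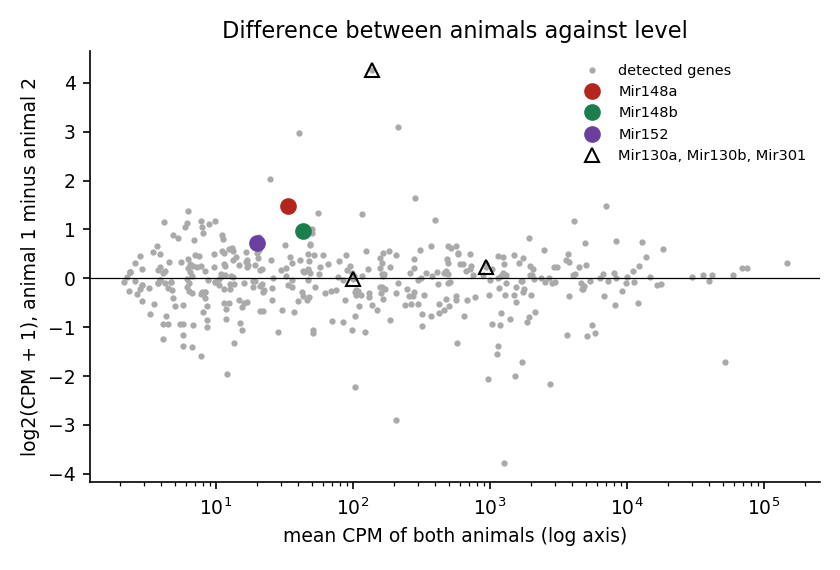
Difference in log2(CPM + 1) between animal 1 and animal 2 against mean CPM (log axis) for the 415 detected genes (grey), the 3 members (colour) and the detected genes of the miR-130 and miR-301 group (open triangles). The members lie at 1.49, 0.97 and 0.72, all above 0, while Mir301 lies at 4.26 and Mir130b at -0.02.

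The members' folds did not differ from each other beyond counting error. The fold of Mir148a was 1.46 times that of Mir148b (exact conditional interval 0.926 to 2.32) and 1.73 times that of Mir152 (0.997 to 2.98). That of Mir148b was 1.18 times that of Mir152 (0.715 to 1.94). The intervals are wide because animal 2 had only 34 to 66 counts per member, and they do not show that the folds were alike.

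Of the red cell and liver markers, Mir451a, Mir144 and Mir122 were higher in animal 1, as the family was, and Mir486 was not. The red cell miRNA Mir451a was at 384.5 CPM in animal 1 and 43.9 in animal 2, and Mir144 of the same cluster had 40.8 and 9.21. Mir486, the third erythroid marker, had 33.5 and 38.2 CPM, inside counting error. The erythroid list summed to 458.8 CPM in animal 1 and 91.2 in animal 2, with 3 of 3 detected, none at 0, and 2 outside counting error toward animal 1, against 27.0% of all detected genes. In the unstranded column 1 erythroid gene was detected, and the sums were 43.5 and 9.86 CPM. Mir122, the main liver miRNA and the only liver marker listed, had 60.9 and 36.8 CPM.

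In several other marker lists the summed level was higher in animal 2, a direction in which 29.6% of all detected genes were outside counting error. The 6 leukocyte and microglia markers, all detected, summed to 6262 CPM in animal 1 and 7516 in animal 2, with 4 outside counting error toward animal 2 and none toward animal 1. The 3 vessel markers summed to 11469 and 15155 CPM, all 3 outside toward animal 2, and the 3 oligodendrocyte markers summed to 1642 and 3461 CPM, with 2 outside toward animal 2. In the unstranded column 2 vessel genes were detected, with sums of 5133 and 5810 CPM, and no oligodendrocyte gene was, with sums of 0 and 0.939 CPM. Of the 12 detected neuronal genes, 5 were outside toward animal 1 and 6 toward animal 2, against 27.0% and 29.6% of all detected genes. Mir128, Mir129, Mir138 and Mir218 are each listed as 2 gene copies, so the 12 are not independent. The copies Mir138-1 and Mir138-2 were outside in opposite directions. The part of these cell types, and of the larger unmapped share in animal 2, in the family's difference was not tested.

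The miR-130 and miR-301 group carries the family's seed, CAGUGCA, shifted by 1 base so that these bases begin the mature miRNA. The group's own seed therefore overlaps that of the family without being the same, as these 3p sequences show with the seed in capitals.
miR-130a-3p: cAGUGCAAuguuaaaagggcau
miR-130b-3p: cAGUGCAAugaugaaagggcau
miR-301a-3p: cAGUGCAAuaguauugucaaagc

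Of the 1738 mature sequences, 8 (0.460%) begin with CAGUGC, the start of the family's seed. Of these 8, those of Mir130c, Mir6341, Mir6347 and Mir6389 belong to genes that were not listed. Mir301b was listed without a RefSeq 3p sequence. Of the 5 genes listed for this group, 3 were detected, 2 of them outside counting error toward animal 1, against 27.0% of all detected genes, and 1 inside. Mir130a had 1010 CPM in animal 1 and 855 in animal 2, which was 7.61 and 14.0 times the sum of the miR-148 and miR-152 family. Mir301, the gene of miR-301a, had 261 and 12.7 CPM. Mir130b was nearly level, with 99.0 and 100.5 CPM. Mir301b had 18 counts and 0, and Mir721 had 0 in both. The detected members of this group thus ran from -0.02 to 4.26 on the log2(CPM + 1) scale, a wider range than the 0.72 to 1.49 of the family.

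Other miRNAs known to act on DNA methyltransferase messages mostly went the other way. All 8 listed genes were detected, with 7 outside counting error toward animal 2 and 1 toward animal 1, and a median difference of -0.27 on the log2(CPM + 1) scale. Under the other library scalings 5 to 7 were outside toward animal 2, and Mir29b-2 and Mir185 were those that moved inside. Over all detected genes, 29.6% were outside toward animal 2, a share that depends on depth and was not matched to these genes' levels. Mir29a, Mir29b-1, Mir29b-2 and Mir29c belong to the same miRNA family, so the 7 are not independent. At high counts even small differences were outside, with ratios of animal 1 to animal 2 of 0.941 for Mir185 and 0.897 for Mir143. Mir29a, which acts on Dnmt3a and Dnmt3b, had 8412 CPM in animal 1 and 10012 in animal 2. Mir143, a smooth muscle miRNA, had 4590 and 5118 CPM, and Mir185, which acts on Dnmt1, had 1270 and 1350 CPM. The exception was Mir101a, with 167.6 and 66.2 CPM. Each of the 3 leading genes exceeded the whole miR-148 and miR-152 family in both animals.

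In the list of miRNAs that act on cholesterol and lipid genes, all 10 were detected, with 5 outside toward animal 1 (6 with TMM scaling or without the most abundant gene), 2 toward animal 2 and 3 inside. Over all detected genes, 27.0% were outside toward animal 1 and 29.6% toward animal 2. The median difference was 0.19. Mir128 and Mir30c are each listed as 2 gene copies, so the 10 are not independent. Mir128-1 led with 16164 CPM in animal 1 and 9645 in animal 2, followed by Mir128-2 with 2968 and 1971 CPM and Mir27b with 803 and 1560 CPM. Mir33, which lies in Srebf2 and lowers ABCA1, had 19.7 and 21.9 CPM, a mean close to that of Mir152.

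**Figure D5:**
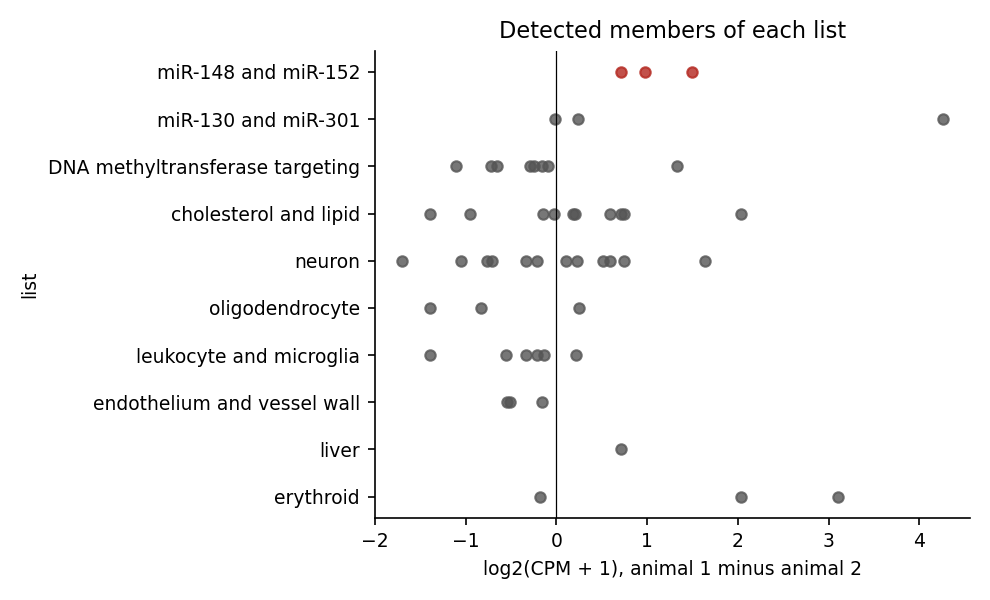
Difference in log2(CPM + 1) between animal 1 and animal 2 for each detected gene, with 1 row per list and the family on top in red; a gene in 2 lists appears in both. The 3 members lie between 0.72 and 1.49, while 7 of 8 genes of the DNA methyltransferase list lie below 0.

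How closely the nearest genes matched in both animals at once differed among the members. Likeness was measured as the distance between the pairs of log2(CPM + 1) values over the 2 libraries, among detected genes. Mir152 was closest to Mir183, a miRNA of sensory organs, at a distance of 0.025 (109 and 34 counts against 111 and 34), followed by Mir3070b at 0.094. Mir148b was closest to Mir429, an epithelial miRNA, at 0.27 and to Mir344b at 0.30. Mir148a had no gene so near, with Mir679 at 0.58 and Mir467c at 0.80. With 2 libraries, such likeness describes levels only.

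Of the neighbouring miRNA genes, Mir10a alone was detected in both animals. Within 1 Mb of the members lie 16 other counted miRNA genes, 3 near Mir148a, 5 near Mir148b and 8 near Mir152. Mir10a, 533119 bases from Mir152, had 30 counts in animal 1 and 15 in animal 2. Mir196b had 5 and 6, Mir196a-2 had 1 and 0, and Mir196a-1 had 0 in both. Mir8103 had 5 and 1. None of the other 11 neighbours exceeded 3 counts in either library. These neighbours were chosen by distance after the members' values were known.

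Counts of the members came almost wholly from their own strand. Opposite-strand counts were 0 in both animals for Mir148a and Mir148b, and 1 and 0 for Mir152. The unstranded column held the same counts except for Mir152 in animal 1, with 112 in place of 111.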

How the data were processed

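MicroRNA-seq counts from 2 cortex libraries were used. The deposited values are raw, unnormalized counts per miRNA gene, on mm10 with GENCODE M21 per the deposited metadata. How reads were trimmed and aligned was not given in the sources used here. Reads that mapped to several places were tallied in a summary entry apart from the gene rows, and any further treatment of them was not given. They were 48.9% and 48.2% of mapped reads in animals 1 and 2. Levels and ranks therefore rest on the reads tallied at genes alone. Columns have no header, and their strand roles were read from the values; column 3, the read strand, was used. The first 4 entries name no gene and were left out of totals. They held 67.4% of reads in animal 1 and 77.5% in animal 2.

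CPM was the count divided by the library's total over genes, times 1000000. Detection at 2 CPM corresponds to 8.83 counts in animal 1 and 4.56 in animal 2. Exact Clopper-Pearson 95% intervals came from scipy 1.17.1, and calls were tested on simulated data. TMM factors came from edgeR 4.0.16 and size factors from DESeq2 1.42.0, as alternatives only. With 1 group, no differential test was run. Sequences are from the RefSeq table on GRCm38.p6, where all 3 members matched.

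Named genes were the members, the 2 genes nearest each in level, genes sharing the seed and the 3 most abundant of each list. Other genes named were chosen after their values were seen. Although the rule for the members uses no measured values, members and lists were chosen with earlier results of these data known.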

Additional observations from a re-analysis of the deposited data

How the results depend on the processing

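All 3 members stayed outside counting error toward animal 1 with TMM factors, DESeq2 size factors, the unstranded column, the most abundant gene left out of the totals, and the deeper library thinned. Over these settings, pseudocounts of 0.1 and 5 and scaling to mapped reads, the log2 difference ran from 1.31 to 1.65 for Mir148a, 0.89 to 1.11 for Mir148b and 0.60 to 0.85 for Mir152. Scaling to all mapped reads, chosen after seeing the data, lowered the mean of Mir148a to 14.3 CPM, that of Mir148b to 18.5 CPM and that of Mir152 to 8.53 CPM, because the total is larger. Per 100 bases of hairpin the mean of Mir152 was 27.4 CPM, because its hairpin is shorter. Without either animal each mean is the other animal's value. No paired analysis was possible because there was 1 group. The 34 to 66 counts per member in animal 2 limit the precision of every ratio.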
